A study of Saccharomyces cerevisiae with 10 samples.

Results

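The 10 genes described here encode enzymes of the later steps of glycolysis and of alcoholic fermentation in budding yeast, Saccharomyces cerevisiae. They are FBA1 (YKL060C), TDH1 (YJL052W), TDH2 (YJR009C), TDH3 (YGR192C), PGK1 (YCR012W), GPM1 (YKL152C), ENO1 (YGR254W), ENO2 (YHR174W), PDC1 (YLR044C) and ADH1 (YOL086C). They were chosen by name, with no rule on their measured values, but with earlier results of these data known. All 10 were found among the 5897 protein-coding genes of a table of 10891 features. They had been put together as abundant genes, and 7 of them were at place 12 or above by density in WT, but TDH1 was at place 1205 of 5897 and does not carry that description.

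RNA was measured in 10 libraries, in 5 groups of 2 biological replicates. WT was strain BY4741, a MATa strain with the alleles his3Δ1, leu2Δ0, met15Δ0 and ura3Δ0. The xrn1 group shared that strain and those alleles and also carried xrn1Δ::kanMX4, which removes the main cytoplasmic 5′ to 3′ exoribonuclease. The dbp2 group was labelled BY4741 as well and MATa, but with his3Δ0, leu2Δ0, ura3Δ0, the entries met- and lys?, and dbp2Δ::KanMX6, which removes a DEAD-box RNA helicase. WT-Dox was the MATa strain BMA64-1A with the alleles ade2-1, his3-11,15, trp1Δ2, ura3-1 and can1-100 and a leu2 allele with mutations 3 and 112. The tet-MTR4-Dox group had the same alleles plus kanMX6-tetOFF::MTR4, a promoter replacement through which doxycycline shuts off MTR4, which encodes a helicase of the nuclear exosome pathway. Both of these groups received doxycycline at 10 µg/mL for 6 hours, and the first 3 groups received none. All cells were in YPD, the rich glucose medium, at 30 °C and an OD600 of 0.5. It is not given in the sources used here whether the replicates of a group came from separate clones, so p-values measure the spread between these libraries.

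Glycolysis turns glucose into pyruvate, and the enzymes from aldolase to enolase make triose phosphates and carry them on to phosphoenolpyruvate. In rich glucose medium budding yeast ferments: pyruvate decarboxylase turns pyruvate into acetaldehyde, and alcohol dehydrogenase reduces that to ethanol, which regenerates the NAD+ that glyceraldehyde-3-phosphate dehydrogenase consumes. The genes for these enzymes are among the most strongly transcribed of the yeast genome, and their promoters are known to bind Rap1 together with Gcr1 and Gcr2.

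Each value is a density, the number of reads per base of a feature after division by a factor for the library. The libraries held 16.0 M to 33.5 M reads counted on features, and the values show that the factors follow the ERCC spike-in RNAs, synthetic RNAs that took 1.35% to 3.14% of the reads. The step at which these RNAs were added is not given in the sources used here. On this spike-in scale the median protein-coding gene was higher than in the control by 1.90 on the log2 scale in xrn1, by 0.81 in dbp2 and by 0.84 in tet-MTR4-Dox, and its log2 difference between WT-Dox and WT was -0.15. Changes are therefore given on the spike-in scale and also rescaled, with each library divided by the median shift of its protein-coding genes. In RNA from bulk cultures, a change in the mixture of cells and a change in RNA per cell cannot be told apart. The targeted genes followed the labels: XRN1 was at 2.49 and 2.28 in WT against 0.102 and 0.106 in xrn1, DBP2 at 3.49 and 3.41 against 0.00313 and 0.00326 in dbp2, and MTR4 at 1.49 and 1.302 in WT-Dox against 0.429 and 0.469 in tet-MTR4-Dox. They were not level in the other groups. DBP2 was at 3.95 and 3.85 in WT-Dox against 9.14 and 9.11 in tet-MTR4-Dox, and XRN1 was at 1.32 and 1.20 in WT-Dox. Summed over STE2, MFA1 and MFA2, markers of MATa cells, density was 18.8 to 69.7 across libraries, against 0.125 to 2.17 for the MATalpha markers STE3, MF(ALPHA)1 and SAG1, of which STE3 and MF(ALPHA)1 reached at most 0.0530. SAG1 was above its control in each mutant, and by most in xrn1, at 2.15 and 2.12 against 0.147 and 0.123 in WT. Marker genes of the strains differed within comparisons too. LYS2 was at 1.10 and 0.999 in WT but at 0.000502 and 0.000349 in dbp2, and MET17, the gene of the met15 allele, at 0.00125 and 0.000477 in WT but 1.75 and 1.64 in dbp2. Between WT-Dox and tet-MTR4-Dox, TRP1 differed (0 and 0.000690 against 0.129 and 0.128), as did MET17 (7.87 and 7.68 against 1.36 and 1.53). The part of these strain differences in the results below was not tested.

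Each of the 10 genes is coded by 1 uninterrupted stretch in the RefSeq annotation of genome build R64. The sequence upstream of 4 of them is shown because it holds both motifs these promoters are known for, close together. The Rap1 motif was searched as ACCCNNACA and the Gcr1 motif as CTTCC, on both strands, in the 800 bases before each coding start, and the motifs cannot overlap each other. A Rap1 motif lay within 60 bases of a CTTCC upstream of PGK1, GPM1, ENO1 and ADH1, which is 4 of the 10 genes, against 2.27% of the 5892 upstream windows searched. In the following 100-base stretches, read 5′ to 3′ along the coding strand, capitals mark both motifs; GGAAG is CTTCC on the other strand. The stretches lie at chrIII:137234-137333 (plus strand), chrXI:164709-164808 (minus strand), chrVII:1000406-1000505 (plus strand) and chrXV:161214-161313 (minus strand) of R64.
PGK1: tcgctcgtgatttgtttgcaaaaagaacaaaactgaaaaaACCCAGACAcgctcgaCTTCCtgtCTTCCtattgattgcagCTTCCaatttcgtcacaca
GPM1: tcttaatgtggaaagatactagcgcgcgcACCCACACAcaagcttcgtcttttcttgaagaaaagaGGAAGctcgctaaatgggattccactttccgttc
ENO1: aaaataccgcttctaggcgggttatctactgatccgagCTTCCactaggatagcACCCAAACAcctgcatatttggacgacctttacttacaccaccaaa
ADH1: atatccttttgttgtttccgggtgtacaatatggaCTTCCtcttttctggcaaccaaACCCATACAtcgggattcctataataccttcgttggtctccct

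The PGK1 stretch holds 3 copies of CTTCC after its Rap1 motif, and the other stretches hold 1 each. The Rap1 motif begins 472 bases before the coding start of PGK1, 394 before that of GPM1, 467 before that of ENO1 and 662 before that of ADH1. CTTCC alone was found upstream of 9 of the 10 genes but also in 81.8% of all windows, and the Rap1 motif upstream of 6 of the 10 genes against 8.18% of all windows. A match describes the letters of the window and is no measured binding site.

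In WT, TDH3 had the highest density of all protein-coding genes, with 326 and 313 in the 2 libraries. PDC1 (226 and 219) and ENO2 (181 and 179) took places 2 and 3 of 5897, followed by ADH1 at place 4, FBA1 at place 5, PGK1 at place 9 and GPM1 at place 12. TDH2 was at place 52, ENO1 at place 271 and TDH1 at place 1205. The 10 genes therefore spanned densities from 1.04 to 326 in WT, and no neighbours in their order overlapped there or in xrn1.

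In the mutants the order shifted. TDH3 was still first in xrn1, second in dbp2 and at place 3 in tet-MTR4-Dox, whereas ADH1 was at place 19, 54 and 48 in these 3 groups. ENO2 was at place 6, 33 and 9, and TDH2 at place 131, 245 and 158. ENO1 was at place 340 in xrn1, 236 in dbp2 and 316 in tet-MTR4-Dox. Libraries of neighbouring genes overlapped for FBA1 and GPM1 and for ENO1 and TDH2 in dbp2, for FBA1 and ADH1 in WT-Dox, and for PDC1 and ENO2 and for PGK1 and ADH1 in tet-MTR4-Dox, so their order in those groups lies within the spread.

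**Figure D1:**
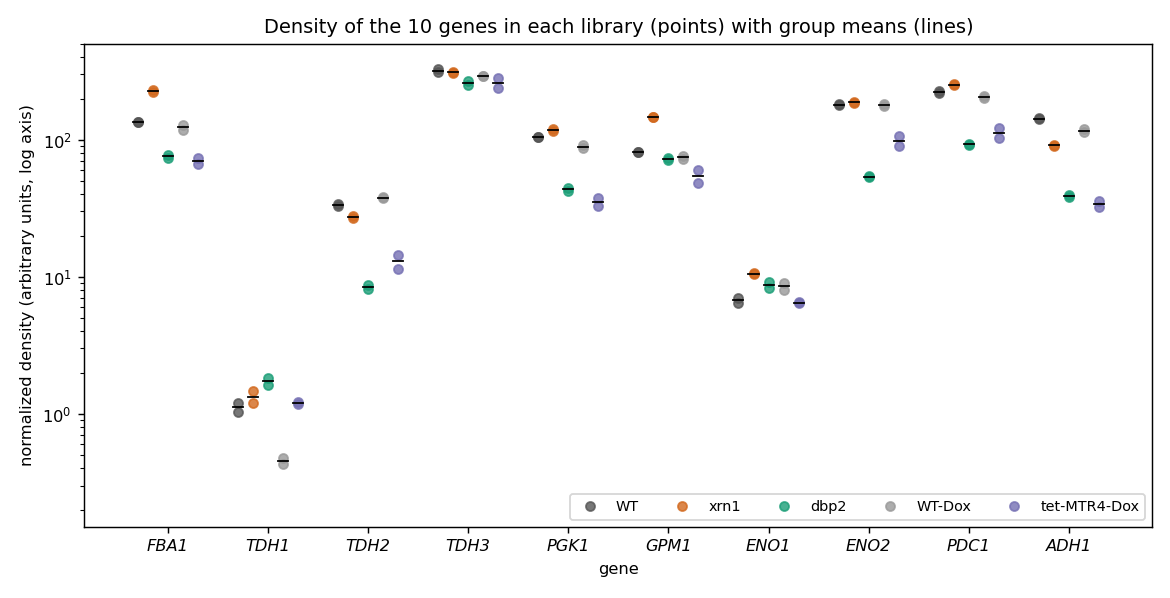
Normalized density (arbitrary units, log axis) of the 10 genes in each library, with points for libraries, colours for the 5 groups and lines for group means of 2. TDH3 sat between 240 and 326 in all groups, while TDH1 ran from 0.433 in WT-Dox to 1.84 in dbp2.

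Together the 10 genes took 11.3% and 11.7% of the protein-coding reads in WT, and 11.3% and 11.7% in WT-Dox. Their share was 5.76% and 5.80% in xrn1, 5.15% and 5.10% in dbp2, and 5.43% and 6.20% in tet-MTR4-Dox. Both libraries of each mutant lay below both libraries of its control. A share does not depend on the spike-in scale, and the widest 95% Wilson interval of these shares was 0.0336 percentage points, which covers counting error only. With 2 libraries a group, an exact permutation test of such a value cannot go below p = 0.33 (two-sided), so no test is given.

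Single genes differed in this, and not all of them lost share. PDC1 held 2.90% to 2.95% in WT, 1.49% to 1.5% in xrn1, 1.04% to 1.08% in dbp2, and 1.26% to 1.46% in tet-MTR4-Dox against 2.88% to 2.98% in WT-Dox. ADH1 went from 1.12% to 1.16% in WT to 0.324% to 0.328% in xrn1 and 0.270% in both dbp2 libraries. TDH3 held 2.57% to 2.60% in WT, 1.12% to 1.14% in xrn1 and 1.79% to 1.87% in dbp2. These 3 genes lost share in each group named. TDH1 and ENO1 gained share in dbp2: TDH1 went from 0.00873% to 0.00954% in WT to 0.0119% to 0.0129%, and ENO1 from 0.0688% to 0.0703% to 0.0761% to 0.0804%. TDH1 also held more in tet-MTR4-Dox, 0.00881% to 0.00932% against 0.00398% to 0.00408% in WT-Dox.

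**Figure D2:**
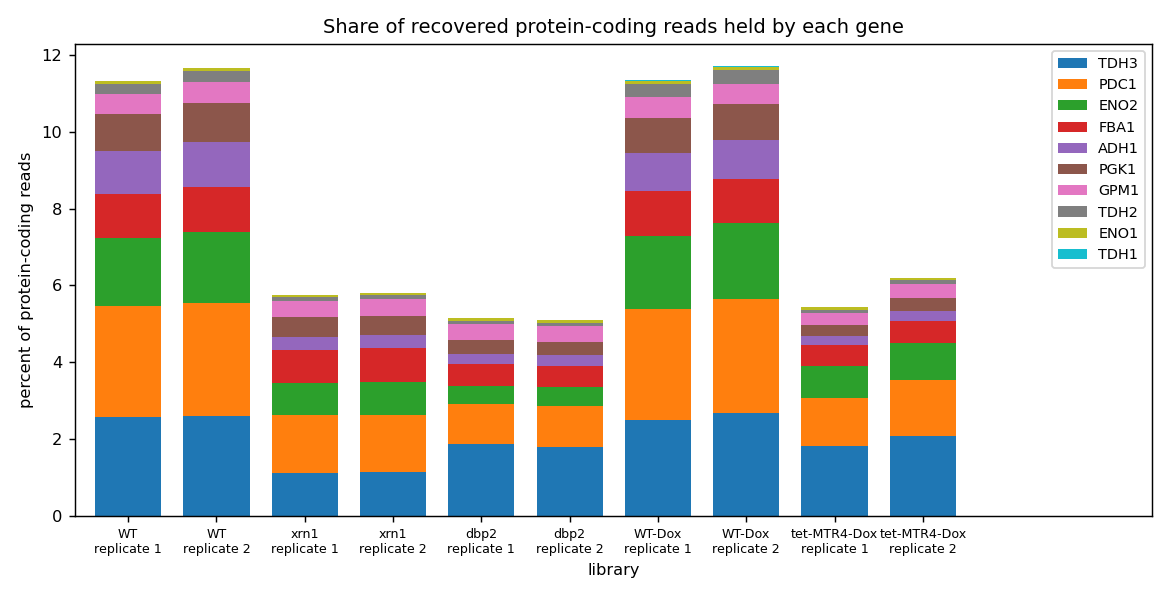
Percent of recovered protein-coding reads held by each of the 10 genes, stacked, in each of the 10 libraries. The stacks reach 11.3% to 11.7% in the 4 wild-type libraries and 5.10% to 6.20% in the 6 mutant libraries.

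Without Xrn1, these genes rose less per spike-in RNA than the median protein-coding gene, or did not rise. FBA1, GPM1, ENO1 and TDH1 were called higher, by 1.19-fold to 1.81-fold, TDH2 and ADH1 were called lower, and TDH3, PGK1, ENO2 and PDC1 were not called in either direction. A call here is a limma adjusted p (Benjamini-Hochberg over all 9666 features kept) under 0.05. Of all kept features 95.0% were called higher and 0.869% lower, and of protein-coding genes 98.3% and 0.356%, against 4 and 2 of the 10 genes. The median log2 fold change of the 10 genes was 0.18, against 1.90 over all kept features and 1.90 over protein-coding genes. After rescaling, all 10 genes were called lower and 0 higher, with a median of -1.71, where 31.8% of all features were called lower, 43.4% higher and their median was 0.14. Of protein-coding genes 39.7% were then called lower and 43.6% higher, with a median of 0.05. The percentage of kept protein-coding genes with a lower log2 fold change than a given gene ran from 0.178% for ADH1 to 10.6% for GPM1.

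Without Dbp2, 7 of the 10 genes fell even on the spike-in scale, namely FBA1, TDH2, TDH3, PGK1, ENO2, PDC1 and ADH1. TDH1 and ENO1 rose on that scale, and GPM1 was not called. Over all kept features 5.32% were called lower and 84.8% higher, and over protein-coding genes 7.86% and 83.9%. The median of the 10 genes was -1.05 on the log2 scale, against 0.94 over all kept features and 0.81 over protein-coding genes. Rescaled, 9 were called lower, against 26.4% of all features, and 0 higher, against 46.2%; the exception was TDH1. Of protein-coding genes 38.9% were called lower and 40.9% higher on that scale. The rescaled median was -1.84, against 0.23 over all kept features and 0.02 over protein-coding genes. The xrn1 and dbp2 comparisons use the same 2 WT libraries, so their values are given side by side and not counted as separate support.

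After MTR4 shut-off, 8 of the 10 genes fell and TDH1 rose on the spike-in scale, and TDH3 was not called. Over all kept features 3.27% were called lower and 91.3% higher, and over protein-coding genes 5.47% and 86.6%. On the log2 scale the median of the 10 genes was -0.84, against 1.36 over all kept features and 0.84 over protein-coding genes. Rescaled, 9 were called lower, against 23.6% of all features, and TDH1 alone higher, against 63.5%, where 39.1% and 41.7% of protein-coding genes were called. The rescaled medians were -1.67 for the 10 genes, 0.58 for all kept features and 0.03 for protein-coding genes. ADH1 had the lowest log2 fold change of the 10 in this comparison, and 8 of 5613 kept protein-coding genes were lower.

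**Figure D3:**
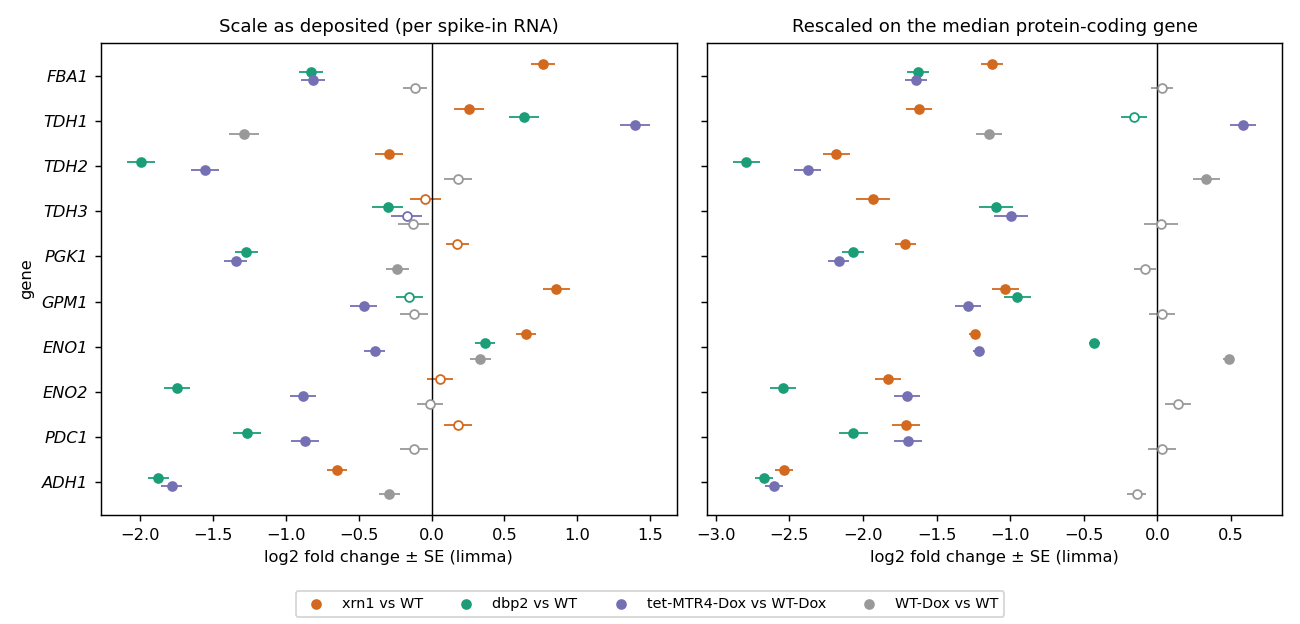
log2 fold change with its SE from limma (horizontal axes) for each of the 10 genes in 4 comparisons, on the deposited spike-in scale (left) and rescaled on the median protein-coding gene (right); filled points have an adjusted p under 0.05. FBA1, TDH1, GPM1 and ENO1 in xrn1, and TDH1 and ENO1 in dbp2, are right of 0 on the left and left of it after rescaling, while TDH1 in tet-MTR4-Dox is right of 0 in both.

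FBA1 encodes aldolase, which splits a hexose bisphosphate into a pair of triose phosphates, and lies at chrXI:326408-327487. Its density was 134 and 134 in the WT libraries, 225 and 231 in those of xrn1 and 77.3 and 73.7 in those of dbp2. It was 129 and 119 in WT-Dox against 66.7 and 74.2 in tet-MTR4-Dox. Both xrn1 libraries were thus above both WT libraries, and both dbp2 and both tet-MTR4-Dox libraries below their controls. The log2 fold change in xrn1 was 0.77 ± 0.08 (SE; limma adjusted p = 4.7e-06), but -1.12 after rescaling. It fell by 0.83 in dbp2 (adjusted p = 4.5e-06) and by 0.81 in tet-MTR4-Dox (adjusted p = 3.1e-06), with limma, and the rescaled values were -1.63 and -1.64.

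TDH1, TDH2 and TDH3 encode the isozymes of glyceraldehyde-3-phosphate dehydrogenase, the step that feeds electrons to NAD+. TDH3 is the main form in growing cells, and TDH1 is known mainly from cells that enter stationary phase. Their coding sequences are alike: TDH2 and TDH3 are 95.8% identical, TDH1 and TDH2 90.2%, and TDH1 and TDH3 88.9%, over 999 bases each. The next lines show coding bases 46 to 135 of each, where 26 positions differ between at least a pair of them, marked by capitals, because such stretches let reads of the copies be told apart. They lie at chrX:338316-338405 (plus strand), chrX:454547-454636 (minus strand) and chrVII:883676-883765 (minus strand) of R64.
TDH1: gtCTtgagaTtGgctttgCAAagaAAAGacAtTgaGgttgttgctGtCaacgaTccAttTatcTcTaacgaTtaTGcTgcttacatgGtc
TDH2: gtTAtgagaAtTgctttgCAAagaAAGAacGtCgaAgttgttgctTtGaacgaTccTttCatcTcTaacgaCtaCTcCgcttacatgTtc
TDH3: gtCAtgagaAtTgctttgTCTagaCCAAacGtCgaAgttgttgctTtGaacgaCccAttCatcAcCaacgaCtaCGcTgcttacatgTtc

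Elsewhere the copies cannot always be told apart. Of the 50-base windows of the coding sequence, 15.7% for TDH1, 31.3% for TDH2 and 24.4% for TDH3 occur at another place in the genome. How reads with several matches were counted is not given in the sources used here, so the values of these 3 genes are uncertain to that extent. TDH1 was counted at 557 to 2562 reads a library against 196325 to 525453 for TDH3.

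TDH3, at chrVII:882812-883810, differed little per spike-in RNA between xrn1 and WT. Its density was 326 and 313 in the WT libraries, 309 and 311 in those of xrn1 and 270.1 and 249 in those of dbp2. It was 293 and 294 in WT-Dox against 239.9 and 283 in tet-MTR4-Dox. All mutant libraries were below their controls, those of xrn1 by the least. The log2 fold change was -0.04 in xrn1 (limma adjusted p = 0.695) and -0.17 in tet-MTR4-Dox (adjusted p = 0.149). In dbp2 it fell by 0.30 ± 0.11 (limma adjusted p = 0.0215), a call that was lost without WT replicate 1 (adjusted p = 0.116), WT replicate 2 (0.0655) or dbp2 replicate 2 (0.118). Without tet-MTR4-Dox replicate 2 the fall in that comparison was -0.29 and passed (limma adjusted p = 0.0205), as did -0.17 with all libraries and voom weights (0.0172). Rescaled values were -1.93 in xrn1, -1.10 in dbp2 and -0.99 in tet-MTR4-Dox, each called.

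TDH2, at chrX:453683-454681, fell most of the 10 genes in dbp2. Its density was 34.0 and 32.8 in the WT libraries, 26.6 and 27.9 in those of xrn1 and 8.68 and 8.09 in those of dbp2. It was 37.8 and 37.9 in WT-Dox against 11.5 and 14.5 in tet-MTR4-Dox. No mutant library reached its control. The log2 fold change was -1.99 ± 0.09 in dbp2 (limma adjusted p = 3.0e-08), which is 3.98-fold lower, and -1.55 in tet-MTR4-Dox (adjusted p = 4.8e-08). In xrn1 it was -0.29 (limma adjusted p = 0.0127), which did not pass without xrn1 replicate 1 (0.0613) or WT replicate 1 (0.0652). Of 5613 protein-coding genes, 20 had a lower log2 fold change in xrn1, 12 in dbp2 and 14 in tet-MTR4-Dox.

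TDH1, at chrX:338271-339269, went the other way. Its density was 1.19 and 1.04 in the WT libraries, 1.20 and 1.47 in those of xrn1 and 1.84 and 1.63 in those of dbp2. It was 0.473 and 0.433 in WT-Dox against 1.22 and 1.18 in tet-MTR4-Dox. Both libraries of each mutant were above those of its control, in xrn1 by a margin of 0.01 in density at its narrowest. The log2 fold change was 1.40 ± 0.10 in tet-MTR4-Dox (limma adjusted p = 2.3e-07), and 0.58 after rescaling on protein-coding genes (adjusted p = 0.00021). Rescaled on the median of all features it was 0.03 and not called (adjusted p = 0.763). In dbp2 it rose by 0.64 on the log2 scale (limma adjusted p = 0.00018), but was -0.16 after rescaling on protein-coding genes, not called (adjusted p = 0.133), and -0.30 on the median of all features, called lower (adjusted p = 0.0164). Its share of protein-coding reads was above WT, as given above. In xrn1 the value was 0.26 (limma adjusted p = 0.0359) and turned to -1.62 after rescaling; the spike-in call was lost without xrn1 replicate 2 (0.11, adjusted p = 0.329) or WT replicate 2 (0.16, adjusted p = 0.241).

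PGK1 encodes phosphoglycerate kinase, which makes ATP, and lies at chrIII:137746-138996. Its density was 104 and 106 in the WT libraries, 121 and 117 in those of xrn1 and 44.7 and 42.2 in those of dbp2. It was 91.5 and 87.0 in WT-Dox against 32.9 and 37.7 in tet-MTR4-Dox. The dbp2 and tet-MTR4-Dox libraries were all below their controls, and the xrn1 libraries slightly above. The log2 fold changes were -1.27 ± 0.08 in dbp2 (limma adjusted p = 1.6e-07) and -1.34 ± 0.08 in tet-MTR4-Dox (adjusted p = 3.8e-08). In xrn1 the value of 0.18 missed the threshold (limma adjusted p = 0.0533), passed it with voom weights (0.0082) or with only WT and xrn1 in the fit (0.0205), and was -1.71 after rescaling.

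GPM1 encodes phosphoglycerate mutase, the step between PGK1 and the enolases, and lies at chrXI:163642-164385. Its density was 81.0 and 81.1 in the WT libraries, 147 and 146 in those of xrn1 and 74.2 and 71.6 in those of dbp2. It was 76.5 and 72.7 in WT-Dox against 48.7 and 59.9 in tet-MTR4-Dox. The xrn1 libraries stood well above WT, and the dbp2 libraries only a little below it. It had the largest rise of the 10 genes in xrn1, 0.86 ± 0.09 on the log2 scale (limma adjusted p = 5.3e-06), which became -1.03 after rescaling. It fell by 0.47 in tet-MTR4-Dox (limma adjusted p = 0.00069). In dbp2 its value of -0.15 was not called (limma adjusted p = 0.145), was called with voom weights (0.0425), and was -0.95 and called after rescaling.

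ENO1 and ENO2 encode the enolase isozymes, which make phosphoenolpyruvate. ENO2 is the form known to be raised by glucose. Their coding sequences are 94.8% identical over 1314 bases, and 23.6% of the 50-base windows of each occur elsewhere in the genome, so the same uncertainty holds for them. Coding bases 277 to 366 are shown with the 13 differing positions in capitals; they lie at chrVII:1001203-1001292 and chrVIII:451603-451692 of R64, both on the plus strand.
ENO1: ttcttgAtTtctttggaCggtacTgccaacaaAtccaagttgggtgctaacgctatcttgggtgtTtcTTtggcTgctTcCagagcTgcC
ENO2: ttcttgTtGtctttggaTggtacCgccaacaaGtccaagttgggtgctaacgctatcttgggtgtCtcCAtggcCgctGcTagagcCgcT

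ENO2, at chrVIII:451327-452640, had a density of 181 and 179 in the WT libraries, 187 and 189 in those of xrn1 and 54.4 and 53.2 in those of dbp2. It was 182 and 176 in WT-Dox against 89.5 and 106 in tet-MTR4-Dox. The dbp2 libraries were far below WT, and those of tet-MTR4-Dox lay between them and the wild types. The log2 fold change was -1.74 ± 0.09 in dbp2 (limma adjusted p = 4.4e-08), 3.35-fold lower, and -0.88 ± 0.09 in tet-MTR4-Dox (adjusted p = 3.0e-06). In xrn1 it was 0.06 (limma adjusted p = 0.523), and -1.83 after rescaling.

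ENO1, at chrVII:1000927-1002240, is the far less abundant of the pair. Its density was 6.97 and 6.49 in the WT libraries, 10.6 and 10.46 in those of xrn1 and 9.11 and 8.30 in those of dbp2. It was 9.01 and 8.003 in WT-Dox against 6.45 and 6.50 in tet-MTR4-Dox. Unlike the values of ENO2, those of dbp2 were above WT. ENO1 rose by 0.65 ± 0.07 in xrn1 (limma adjusted p = 4.4e-06) and by 0.37 ± 0.07 in dbp2 (adjusted p = 0.0005), on the log2 scale, but was -1.24 and -0.43 after rescaling, both called lower. In dbp2 its share of protein-coding reads was higher than in WT, 0.0761% to 0.0804% against 0.0688% to 0.0703%, so the share and the rescaled value differ in sign. In tet-MTR4-Dox it fell by 0.39 (limma adjusted p = 0.00027), and by 1.21 after rescaling.

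PDC1 encodes the main pyruvate decarboxylase, at chrXII:232390-234081. Its density was 226 and 219 in the WT libraries, 254 and 250.3 in those of xrn1 and 92.6 and 92.1 in those of dbp2. It was 208 and 202 in WT-Dox against 103 and 122 in tet-MTR4-Dox. The dbp2 and tet-MTR4-Dox libraries were below their controls with no overlap. It fell by 1.27 ± 0.10 in dbp2 (limma adjusted p = 5.6e-07) and by 0.87 ± 0.10 in tet-MTR4-Dox (adjusted p = 5.8e-06) on the log2 scale. In xrn1 the value was 0.18 (limma adjusted p = 0.0886), was called with voom weights (0.0089) or with only WT and xrn1 in the fit (0.0297), and was -1.71 after rescaling.

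ADH1 encodes the alcohol dehydrogenase that makes ethanol, at chrXV:159548-160594. Of its 50-base windows 14.0% occur elsewhere in the genome. Its density was 144 and 141 in the WT libraries, 91.7 and 90.01 in those of xrn1 and 39.6 and 38.2 in those of dbp2. It was 119 and 114 in WT-Dox against 32.3 and 35.6 in tet-MTR4-Dox. Every mutant library was below both of its controls. The log2 fold change was -0.65 ± 0.07 in xrn1 (limma adjusted p = 5.4e-06), -1.87 ± 0.07 in dbp2 (adjusted p = 9.4e-09) and -1.78 ± 0.07 in tet-MTR4-Dox (adjusted p = 2.4e-09). Rescaled, the values were -2.54, -2.67 and -2.61. Of 5613 protein-coding genes, 10 had a lower log2 fold change in xrn1 and 15 in dbp2.

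Ratios of related genes within a library do not depend on its scale. TDH2 was at 10.4% and 10.47% of TDH3 in the WT libraries, 8.63% and 8.99% in those of xrn1 and 3.21% and 3.24% in those of dbp2. It was at 12.9% in both WT-Dox libraries and at 4.79% and 5.13% in tet-MTR4-Dox. The ratio was thus below that of the control in each mutant, and lowest in dbp2. TDH1 was at 0.366% and 0.332% of TDH3 in the WT libraries, 0.390% and 0.472% in those of xrn1 and 0.681% and 0.654% in those of dbp2. It was at 0.162% and 0.147% in WT-Dox against 0.508% and 0.418% in tet-MTR4-Dox, so its ratio was above that of the control in each mutant.

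ENO1 was at 3.85% and 3.62% of ENO2 in the WT libraries, 5.69% and 5.52% in those of xrn1 and 16.7% and 15.6% in those of dbp2. In the doxycycline groups it was at 4.95% and 4.54% in WT-Dox against 7.20% and 6.15% in tet-MTR4-Dox. The dbp2 libraries stood apart from all others. The ratio of ADH1 to PDC1, added after the values had been seen, was 63.6% and 64.6% in the WT libraries, 36.1% and 36.0% in those of xrn1 and 42.7% and 41.5% in those of dbp2. It was 57.3% and 56.5% in WT-Dox against 31.4% and 29.0% in tet-MTR4-Dox. These ratios are given as a description, with no test.

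**Figure D4:**
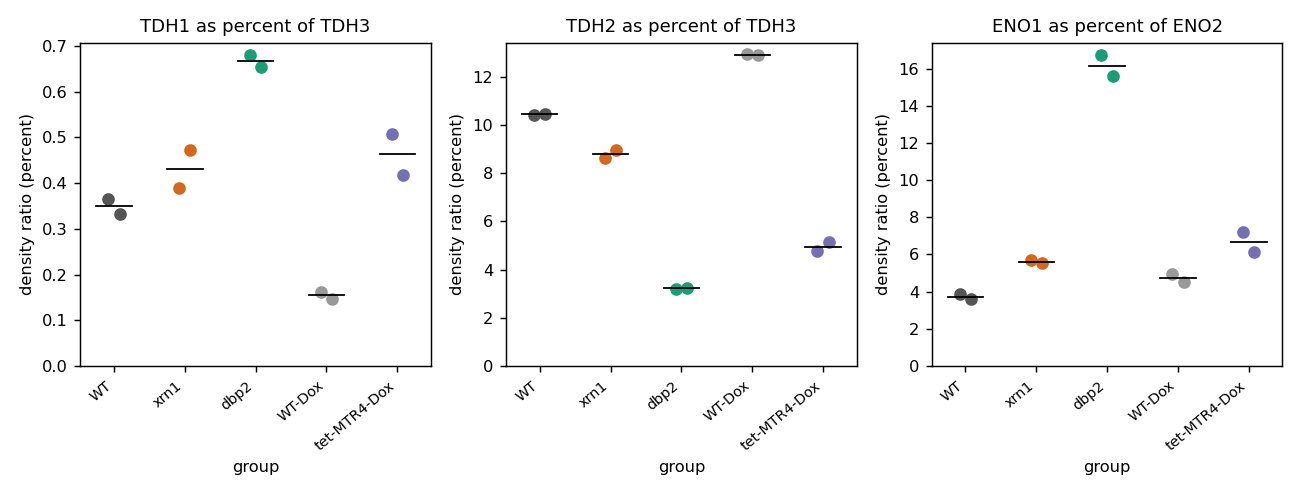
Density of TDH1 and TDH2 as a percent of TDH3 and of ENO1 as a percent of ENO2 (vertical axes, from 0), with points for libraries and lines for group means of 2. ENO1 was at 15.6% to 16.7% of ENO2 in dbp2 and at most 7.20% elsewhere, and TDH2 was at 3.21% to 3.24% of TDH3 in dbp2.

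The effects of the mutants were compared directly for each gene, each effect against its own wild type. The effect of dbp2 minus that of MTR4 shut-off was called for 5 of the 10 genes, lower for 4 (against 52.2% of all features) and higher for 1 (against 15.4%). For differences of effects, here and below, shares over protein-coding genes alone were not computed. The median over all kept features was 0.94 in dbp2 and 1.36 in tet-MTR4-Dox, which lie further apart than the medians of protein-coding genes. ENO2 fell more in dbp2, by a difference of -0.86 ± 0.13 on the log2 scale (limma adjusted p = 0.00014), and TDH2 and PDC1 by -0.44 and -0.40. TDH1 had a smaller effect there (-0.76, limma adjusted p = 0.00098). ENO1 was higher in dbp2 and lower in tet-MTR4-Dox on the spike-in scale, a difference of 0.76 (limma adjusted p = 5.8e-05), and lower in both after rescaling. These 5 differences were also called after rescaling, between -0.84 and 0.79. On that scale 4 genes were called lower (53.4% of all features) and 2 higher (18.4%), GPM1 being added with 0.34. The median protein-coding gene rose by 0.81 in dbp2 and by 0.84 in tet-MTR4-Dox. Rescaling thus moves both effects nearly alike and hardly changes their difference, so these rescaled calls are no separate check. The difference for ADH1 was -0.09 ± 0.10 and for FBA1 -0.01 ± 0.12, neither called.

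The effect of xrn1 minus that of MTR4 shut-off was called higher for 8 genes on the spike-in scale, against 56.5% of all features, and lower for TDH1 (-1.14), against 29.2%. The higher ones ran from 0.94 for ENO2 to 1.58 for FBA1. Rescaling moves these values: 2 genes were then called higher, FBA1 (0.51) and PGK1 (0.45), against 23.1% of all features, and 2 lower, TDH1 (-2.21) and TDH3 (-0.94), against 56.2%. TDH3 had a difference of 0.13 on the spike-in scale, so its sign turned with the scale. The mutants of the 2 comparisons also differ in strain and in doxycycline.

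Other genes of the pathway were listed by function, and their counts stand beside the share of all kept features called higher, which was 95.0% in xrn1, 84.8% in dbp2 and 91.3% in tet-MTR4-Dox on the spike-in scale, with 0.869%, 5.32% and 3.27% lower. After rescaling, 43.4%, 46.2% and 63.5% were higher and 31.8%, 26.4% and 23.6% lower. Of protein-coding genes alone, 98.3%, 83.9% and 86.6% were higher and 0.356%, 7.86% and 5.47% lower on the spike-in scale. Their rescaled shares were 43.6%, 40.9% and 41.7% higher and 39.7%, 38.9% and 39.1% lower. The list of other glycolytic enzymes holds 12 genes, all kept. In xrn1, 11 were called higher, near the 95.0% of all features, and 0 lower on the spike-in scale, with a median of 1.15, and 3 higher and 6 lower after rescaling. HXK1, a hexokinase known to be low in glucose, rose 16.7-fold, GLK1, the glucokinase, 6.42-fold, and PYK2, the minor pyruvate kinase, 4.99-fold. Only these 3 rose by more than the median protein-coding gene, which was at 1.90 on the log2 scale. CDC19 was the gene not called, at -0.13. TPI1 (0.28), PFK1 (0.35), PGI1 (0.43) and PFK2 (0.50) were called higher but rose far less than that median. In dbp2, 5 were called higher, against 84.8% of all features, and 6 lower, against 5.32%, and 2 higher and 9 lower after rescaling. HXK2, the main hexokinase in glucose, was at 0.288 of its WT level, PGI1, phosphoglucose isomerase, at 0.554 and CDC19, the main pyruvate kinase, at 0.622, while GPM2, a minor homologue of GPM1, was called at 8.16-fold, from 0.0360 and 0.0399 in WT to 0.329 and 0.381. In tet-MTR4-Dox, 6 were called higher, against 91.3%, and 6 lower, against 3.27%, and 3 higher and 8 lower after rescaling. CDC19 was at 0.598 and HXK2 at 0.683 of WT-Dox. GPM2 was at 3.04-fold from 0.0156 and 0.0233 in WT-Dox, under the filter minimum of 0.0344 on the mean of all libraries. GPM2 was thus kept through groups where it is higher, and that fold is a description. The counts of these enzymes called higher in tet-MTR4-Dox include GPM2 on both scales, and are descriptions to that extent.

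Of the other fermentation enzymes, 6 of 7 passed the filter on low density. All 6 were called higher in xrn1, where 95.0% of all features were, with ADH5 at 10.9-fold and ADH4 at 7.11-fold, but 2 were called higher and 3 lower after rescaling. In dbp2, 4 were called higher, against 84.8% of all features, and 1 lower on the spike-in scale, and 1 higher and 3 lower after rescaling. In tet-MTR4-Dox, 4 were called higher, against 91.3%, and 1 lower, and 2 higher and 4 lower after rescaling. ADH2, the alcohol dehydrogenase that oxidises ethanol, was called higher at 2.73-fold in dbp2 and 8.21-fold in tet-MTR4-Dox, from a density of 0.0408 and 0.0420 in WT and 0.0151 and 0.0183 in WT-Dox. The WT-Dox values are under the filter minimum of 0.0344, which is set on the mean of all libraries. ADH2 was therefore kept through groups where it is higher, and its fold is a description. The 4 called higher in tet-MTR4-Dox include ADH2, as do the 2 called higher there after rescaling, so these counts are descriptions to that extent. PDC5, a minor pyruvate decarboxylase, rose 3.05-fold in tet-MTR4-Dox.

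The glycerol branch, which drains triose phosphates, had 4 genes called higher of 4 in xrn1, 2 in dbp2 and 1 in tet-MTR4-Dox, where GPP1 was called lower. Of all features 95.0%, 84.8% and 91.3% were called higher, and the same shares apply to the other lists here. Rescaled, 3 of the 4 were called lower in each of these comparisons. GPP2, a glycerol phosphatase, rose 7.15-fold in dbp2. Of the genes of gluconeogenesis and the glyoxylate cycle, the routes used on carbon sources other than sugar, 4 of 6 were kept, and 4 were called higher in xrn1, 2 in dbp2, where 2 were lower, and 4 in tet-MTR4-Dox. Rescaled, these were 2, 2 and 3 higher, with 1, 2 and 1 lower. PCK1, which makes phosphoenolpyruvate in gluconeogenesis, was at 25.4-fold, 7.11-fold and 4.16-fold, from a density of 0.0234 in WT and 0.0304 in WT-Dox. Both controls are under the filter minimum of 0.0344, so PCK1 was kept through the mutants and these folds are descriptions. The counts called higher include PCK1 in each of these comparisons, on the spike-in scale and after rescaling, and are descriptions to that extent. In the acetate branch, 5 of 5 were called higher in xrn1, 2 in dbp2 (2 lower) and 2 in tet-MTR4-Dox (1 lower), and 3, 2 and 2 higher with 2, 3 and 3 lower after rescaling.

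Among the 6 transcription factors of glycolytic promoters, 5 were called higher in each mutant on the spike-in scale, near or under the 95.0%, 84.8% and 91.3% of all features, and 1 lower in xrn1. Rescaled, 1, 2 and 0 were called higher in xrn1, dbp2 and tet-MTR4-Dox, and 3 lower in each. GCR1, the activator of glycolytic genes, rose 3.85-fold in xrn1 but had a rescaled log2 value of 0.07 that was not called. GCR2, its partner, rose 4.42-fold in xrn1, with a rescaled value of 0.27 that was called. TYE7, another activator of glycolytic genes, was at 0.725 of WT in xrn1, at 3.08-fold in dbp2 and at 1.89-fold in tet-MTR4-Dox. After rescaling, TYE7 was called lower in xrn1 (-2.33) and higher in dbp2 (0.83), and was not called in tet-MTR4-Dox (0.10).

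**Figure D5:**
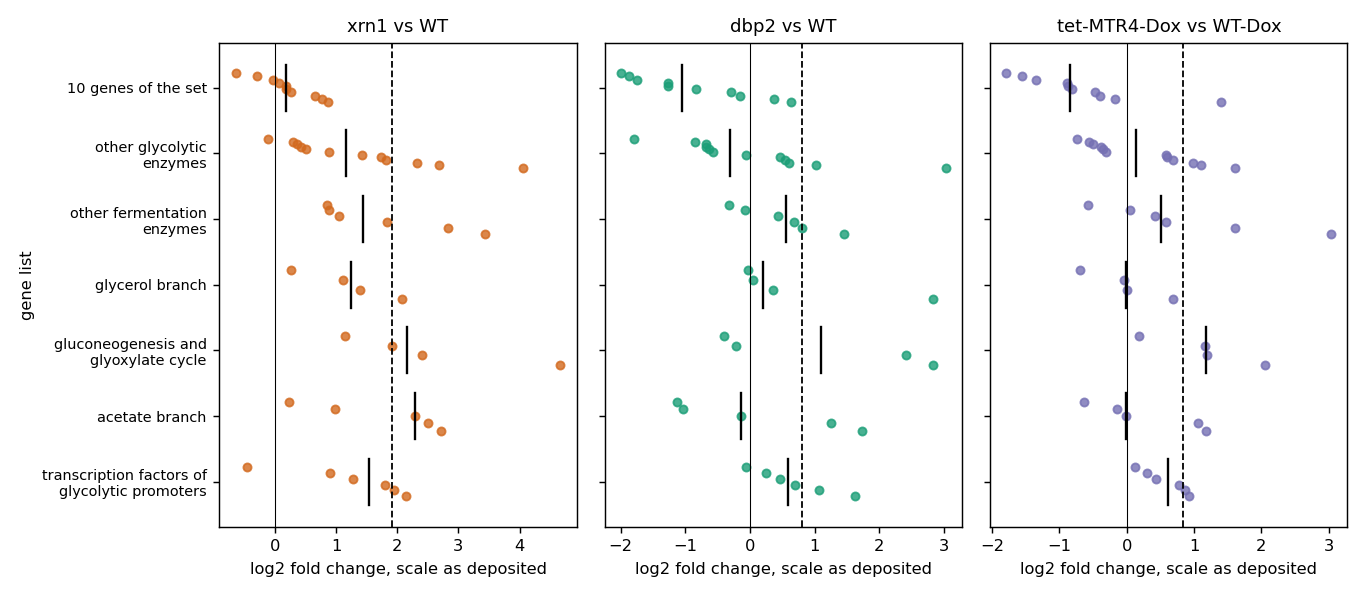
log2 fold change on the deposited spike-in scale (horizontal axes) of each kept gene of 7 lists in 3 comparisons, with a solid bar at each list's median and a dashed line at the median of protein-coding genes (1.90, 0.81 and 0.84). The 10 genes have medians of 0.18, -1.05 and -0.84; rescaling moves all points of a panel left by nearly the same amount and turns the sign of many.

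Between the wild types, WT-Dox against WT, strain and doxycycline cannot be told apart. TDH1 was the gene that differed most, with 1.19 and 1.04 in WT and 0.473 and 0.433 in WT-Dox, a log2 fold change of -1.29 ± 0.10 (limma adjusted p = 9.7e-06) that stayed at -1.14 after rescaling. ENO1 was higher in WT-Dox by 0.34 (limma adjusted p = 0.0034), and by 0.48 after rescaling. ADH1 (-0.29, adjusted p = 0.0083) and PGK1 (-0.23, adjusted p = 0.0367) were called lower by limma, and neither was after rescaling. In all, 1 of the 10 genes was called higher, against 11.5% of all features and 13.0% of protein-coding genes, and 3 lower, against 33.0% and 41.2%. Rescaled, 2 were called higher (TDH2 and ENO1), against 21.7% and 27.4%, and 1 lower, against 23.7% and 29.5%. PGK1 was not called without any one of the 4 libraries, with an adjusted p of 0.0527 to 0.146, nor was ADH1 without WT replicate 1 (0.0550). Of the 12 other glycolytic enzymes, 0 were called higher and 9 lower, and 0 and 7 after rescaling, with HXK1 at -1.75 and GLK1 at -1.73 on the spike-in log2 scale. Of the 6 transcription factors of glycolytic promoters, 1 was called higher and 4 lower, and 1 and 3 after rescaling.

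Across the 10 libraries, PGK1 (Pearson r = 0.98) and PDC1 (0.97) followed the mean log2 density of the other 9 genes most closely, then FBA1 (0.95) and TDH3 (0.90). ENO1 (0.38) and TDH1 (-0.43) followed it least. Of 2796 other protein-coding genes at or above the median density, those most like the mean of the 10 were SSB2 (0.984), PMT2 (0.983), FET3 (0.981), MET5 (0.980) and SSB1 (0.979). These are descriptions over libraries that share groups and a spike-in scale, and carry no p. SSB2 had a density of 33.6 and 32.0 in the WT libraries, 35.4 and 35.04 in those of xrn1 and 20.7 and 19.7 in those of dbp2.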

How the data were processed

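Strand-specific total RNA was sequenced from 125 ng of rRNA-depleted RNA per library, per the labels' protocols. The authors deposited a signal, the normalized density of each feature; among the tools in the submitters' processing notes are HISAT2 2.2.0, Trim Galore, DESeq2 and featureCounts 2.0.0, with no role stated, and the build is R64. The deposited values equal whole reads divided by a feature length and a library factor for 100% of values, at a tolerance of 0.02. Feature lengths read from the values were 122 to 237 bases longer than the coding sequences of the 10 genes. The 73 ERCC RNAs above 0 in every library were level across libraries.

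A mean density of at least 0.0344, the 10th percentile, was required, which kept 9666 of 10740, all 10 genes among them. The log2 of density plus 0.00626 was fitted with limma 3.58.1 (R 4.3.3; eBayes with trend) over 10 libraries with a coefficient per group, so an SE pools the spread of all 5 groups (5 residual degrees of freedom). Fold changes are on that log2 scale. Adjusted p-values are Benjamini-Hochberg over all kept features. For rescaling, the log2 density of each kept protein-coding gene was taken relative to that gene's mean over the libraries. The median of these values in a library was its shift, by which it was scaled before the same fit. Reads were recovered for shares and for a voom fit, and DESeq2 and edgeR were not run here. The fit was tested on simulated data in which few features changed, up and down alike. Most features were higher in the mutants here, so that test does not cover such a shift. Replicates differed beyond counting noise (chi-square per degree of freedom 2.65 to 7.91), so none was merged.

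All 10 genes are named in each comparison, and from each pathway list up to 3 with the largest called rise and fall. The genes and lists were chosen with earlier results of these data known. The alternatives tried were other pseudocounts, no filter, 2 rescalings, only the 2 groups compared, voom, a replicate block and leaving out each library. Sequences were read from the RefSeq genome of R64; proteins are not shown.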

Additional observations from a re-analysis of the deposited data

Results flagged for a closer look

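Differences between the effects of the mutants were picked out where the limma test of the difference itself passed, on the spike-in scale. For dbp2 minus tet-MTR4-Dox these were TDH1 (-0.76), TDH2 (-0.44), ENO1 (0.76), ENO2 (-0.86) and PDC1 (-0.40), all log2 differences. For xrn1 minus tet-MTR4-Dox they were FBA1 (1.58), TDH1 (-1.14), TDH2 (1.26), PGK1 (1.52), GPM1 (1.32), ENO1 (1.04), ENO2 (0.94), PDC1 (1.05) and ADH1 (1.13). After rescaling on the median protein-coding gene, the 5 differences of the first kind were still called. Rescaling moves the dbp2 and tet-MTR4-Dox effects nearly alike, so for this kind it is no separate check. Of the second kind, those of FBA1, TDH1 and PGK1 were still called. The mutants compared differ in strain and doxycycline as well, and the part of these in the differences was not tested.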

How the results depend on the processing

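With a pseudocount 4 times larger or smaller, with no filter, or with the replicate number as a block, all 40 gene values and 12 counts and medians kept their direction and side of the threshold. With the replicate block, 4 genes were higher and 2 lower in xrn1 (median 0.18), and 2 and 7 in dbp2; deviations of same-numbered libraries had correlations of -0.07 to 0.02, so the numbers do not pair libraries. With the 2 groups alone or voom, no gene lost its call and 2 and 4 gained one. Scale mattered most. Rescaled on the median protein-coding gene, 0 genes were higher and 10 lower in xrn1 (median -1.71), with signs turned for FBA1 (-1.12), TDH1 (-1.62), PGK1 (-1.71), GPM1 (-1.03), ENO1 (-1.24), ENO2 (-1.83) and PDC1 (-1.71). In dbp2, 0 were higher (median -1.84; TDH1 -0.16, ENO1 -0.43), and in tet-MTR4-Dox the median was -1.67. In WT-Dox against WT, 2 were higher and 1 lower (median 0.030), with FBA1 at 0.033, TDH3 at 0.025, GPM1 at 0.029, ENO2 at 0.14 and PDC1 at 0.031. Differences of effects turned for FBA1 (0.012, dbp2 minus tet-MTR4-Dox) and, for xrn1 minus tet-MTR4-Dox, TDH3 (-0.94), ENO1 (-0.028), ENO2 (-0.13) and PDC1 (-0.014). Rescaled on the median feature, 0 were higher and 10 lower in xrn1 (median -1.79), with FBA1 at -1.20, TDH1 at -1.70, PGK1 at -1.79, GPM1 at -1.11, ENO1 at -1.32, ENO2 at -1.91 and PDC1 at -1.78. In dbp2, 0 were higher (median -1.99; TDH1 -0.30, ENO1 -0.57), and in tet-MTR4-Dox 0 were higher (median -2.22). In WT-Dox against WT, 2 were higher and 1 lower (median 0.0077), with FBA1 at 0.011, TDH3 at 0.0025, GPM1 at 0.0068, ENO2 at 0.12 and PDC1 at 0.0086. Rescaling sets a middle gene near no change by construction. The spike-in scale rests on a step that is not given in the sources used here.

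Leaving out each library in turn, xrn1 had 3 to 4 genes higher and 1 to 2 lower (median 0.15 to 0.19). It gave dbp2 2 higher and 6 to 7 lower (median -1.07 to -1.01), tet-MTR4-Dox 1 higher and 8 to 9 lower (median -0.95 to -0.74), and WT-Dox against WT 1 higher and 1 to 2 lower (median -0.15 to -0.09). ENO2 in WT-Dox against WT ran from -0.032 to 0.013, positive without WT-Dox replicate 2 and negative without any other library. Depth limited TDH1 most, with 557 reads in its smallest library.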
